A study of Homo sapiens with 22 samples.

Results

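Metallothioneins are small, cysteine-rich proteins that bind zinc and copper inside the cell. Their genes lie side by side in 1 cluster, and most of them are switched on by zinc through the transcription factor MTF1, while glucocorticoids and oxidative stress also raise some of them. Here 7 genes were followed through the reprogramming of human fibroblasts, namely MT2A, MT1E, MT1M, MT1F, MT1G, MT1H and MT1X, out of the 33694 genes counted. They were chosen by their level per pool and day in these same data, as a family in which the leading member changes from fibroblasts to pluripotent cells. The levels by day are for that reason a description and were not tested.

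BJ fibroblasts, 1 established line of human foreskin fibroblasts, were reprogrammed in microfluidic channels under 5% oxygen. They were transfected daily, the last time on day 8, with messenger RNAs for POU5F1, SOX2, KLF4, MYC, LIN28 and NANOG. The fibroblasts were grown in DMEM with fetal bovine serum, which reprogramming medium replaced from day 1, so the start of transfection and this change of medium cannot be told apart in any difference between D0 and the later days. The methods give no oxygen level for the culture before reprogramming, so a change of oxygen cannot be told apart either. From day 9 the medium was iPSBrew in place of Pluriton, so the day, the end of transfection and the new medium cannot be told apart in what differs after it. D0 are fibroblasts before transfection, and cells were taken on D3, D5, D7, D9, D11, D13 and D15, with 2 pools per day, A and B (n = 2). Each pool held the cells of 4 chips, frozen in aliquots, of which 1 or 2 were sequenced (22 libraries in 16 pools). The methods call the chips independent, but neither they nor the labels say whether pools A and B of a day come from separate reprogramming experiments, so p-values measure only the spread between such pools. After droplet capture and 3′ sequencing, 41975 cells were kept, each with 1000 genes or more and no more than 10% mitochondrial UMIs, 571 to 6142 per pool, with a median of 23717 to 80168 unique molecular identifiers (UMIs, 1 per captured RNA molecule) per cell and 33181614 to 180056814 UMIs per pool. A pair of libraries shared at most 41 cell barcodes, and at most 1.63% of the smaller library.

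On D0 all 7 fibroblast markers were present, the lowest at 328 CPM on average (UMIs of the gene per 1000000 UMIs of the pool), and none of the 5 pluripotent-like markers reached 5 CPM. The summed CPM of the 5 somatic-like markers was 3520 and 3652 on D0 and 874 and 1039 on D15, that of the 5 pluripotent-like markers 3.69 and 3.56 on D0 and 1913 and 1684 on D15, and that of the 5 mesendoderm-like markers 0.0540 and 0.0272 on D0 and 82.3 and 118 on D15. All levels are CPM of a pool's summed UMIs. Since 3′ sequencing counts 1 end of each molecule, they are not divided by gene length, and 1 UMI stands for about 1 molecule whatever the gene's length. In such sums, fewer cells of a type and less RNA per cell cannot be told apart.

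The genes lie on chromosome 16 of GRCh38, from the start of MT2A at 56608584 to the end of MT1X at 56684196. Counted from the start of MT2A (ENSG00000125148), the starts of transcription are at 16.9 kb for MT1E (ENSG00000169715), 24.1 kb for MT1M (ENSG00000205364), 49.1 kb for MT1F (ENSG00000198417), 59.5 kb for MT1G (ENSG00000125144), 61.2 kb for MT1H (ENSG00000205358) and 73.9 kb for MT1X (ENSG00000187193). MT1G is the only one of them on the minus strand and is followed by MT1H, which points the other way. MT1A and MT1B lie between MT1M and MT1F.

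The sequences before the start of transcription hold matches to the core of the element through which MTF1 acts. The 250 bases before the start were available in RefSeq's GRCh38.p14 table for 3 members, MT2A (chr16:56608334-56608583), MT1H (chr16:56669564-56669813) and MT1X (chr16:56682220-56682469), all on the plus strand, and these are shown because the table holds them. They belong to a gene that fell, one that rose from almost nothing and the one that led the family on D15. MT1E, MT1M, MT1F and MT1G are named only. Capitals mark the letters of the core of the metal response element, TGCACNC or TGCGCNC, on either strand.
MT2A: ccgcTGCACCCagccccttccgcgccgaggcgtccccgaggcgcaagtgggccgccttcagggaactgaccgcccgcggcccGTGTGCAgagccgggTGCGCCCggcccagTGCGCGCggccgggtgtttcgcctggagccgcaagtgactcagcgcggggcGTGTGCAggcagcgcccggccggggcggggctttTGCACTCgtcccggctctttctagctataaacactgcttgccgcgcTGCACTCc
MT1H: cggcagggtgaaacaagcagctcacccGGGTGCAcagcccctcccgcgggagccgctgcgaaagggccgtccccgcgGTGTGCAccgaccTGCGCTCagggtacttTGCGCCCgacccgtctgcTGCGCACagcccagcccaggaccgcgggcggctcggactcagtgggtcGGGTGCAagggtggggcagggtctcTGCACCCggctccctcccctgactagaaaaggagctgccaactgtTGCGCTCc
MT1X: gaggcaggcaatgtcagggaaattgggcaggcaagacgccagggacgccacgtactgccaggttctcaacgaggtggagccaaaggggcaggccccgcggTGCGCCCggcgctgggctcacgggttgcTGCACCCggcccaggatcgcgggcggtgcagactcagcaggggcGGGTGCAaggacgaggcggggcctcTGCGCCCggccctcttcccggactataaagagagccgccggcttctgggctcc

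MT2A has 7 matches to this core, MT1H 8 and MT1X 4. Of the 35116 promoters in the table, 24.8% held at least 1 match in the same 250 bases, 0.0313% at least as many as MT2A, 0.0171% at least as many as MT1H and 0.370% at least as many as MT1X. MT2A fell and MT1H and MT1X rose, and whether the number of matches has a part in this was not tested. In each of the 3 promoters a match lies about as far before the start, from 54 to 48 bases in MT2A, from 53 to 47 in MT1H and from 53 to 47 in MT1X. MT1H and MT1X also share the position of a match on the minus strand, from 78 to 72 bases before the start. MT2A and MT1H share that of a match on the plus strand, from 8 to 2 bases before the start. A match is only a run of letters, and binding of MTF1 was not measured.

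MT2A made up most of the metallothionein RNA of fibroblasts and was lower from D7 on. Its level in pools A and B was 1242 and 1253 CPM on D0, 753 and 1505 on D3, 1760 and 1397 on D5, 961 and 947 on D7, 980 and 917 on D9, 1014 and 909 on D11, 589 and 611 on D13, and 410 and 287 on D15. The pools of D3 lay on both sides of those of D0, both pools of D5 were above both of D0, and from D7 on both pools of each day were below both of D0. From D9 to D13 and from D13 to D15 the pools did not overlap, and the mean of D15 was 3.58-fold below that of D0, and the ratio of a pool of D15 to a pool of D0 lay between 0.229 and 0.330.

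MT1E, the other member that fibroblasts made in quantity, had no single direction over the days. It was at 207 and 208 CPM on D0, 103 and 206 on D3, 180 and 188 on D5, 233 and 171 on D7, 257 and 267 on D9, 215 and 215 on D11, 274 and 319 on D13, and 225 and 133 on D15. Both pools of D3 were below both of D0 and both pools of D13 above all others, and the pools of D15 lay on both sides of those of D0.

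MT1X had the highest mean level of the family on D9, D13 and D15, while MT2A had it on the other days, D11 included, where their pools overlapped. It was at 46.2 and 42.8 CPM on D0, 85.6 and 134 on D3, 249 and 377 on D5, 695 and 347 on D7, 992 and 1108 on D9, 992 and 835 on D11, 1076 and 1493 on D13, and 860 and 548 on D15. Both pools of D3 were already above both of D0, a 2.47-fold difference of the means, and those of D13 were 28.9-fold above D0.

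MT1G and MT1H, the pair that lies head to head, were nearly absent from fibroblasts. MT1G was at 0.864 and 0.836 CPM on D0, 4.20 and 16.3 on D3, 58.8 and 87.9 on D5, 552 and 242 on D7, 740 and 778 on D9, 547 and 457 on D11, 661 and 977 on D13, and 642 and 350 on D15. MT1H had 8 UMIs in all cells of D0 together, which is 0.0360 and 0.0136 CPM, and was at 0.554 and 2.97 CPM on D3, 31.0 and 45.7 on D5, 403 and 167 on D7, 576 and 619 on D9, 435 and 348 on D11, 459 and 621 on D13, and 466 and 230 on D15. In both genes each day from D0 to D9 lay above the one before in both pools. The mean of D9 was 74.0-fold above that of D3 in MT1G and 339-fold in MT1H. The pools of D3 were far apart, so that the ratio of a pool of D9 to a pool of D3 lay between 45.3 and 185 in MT1G and between 194 and 1118 in MT1H, with the higher ratios against pool A of D3. The mean of D15 was 584-fold above D0 in MT1G. In MT1H the ratio of D15 to D0 was 14032, with an interval from counting of 6167 to 28152 that covers counting error only, and the ratio of a pool of D15 to a pool of D0 lay between 6380 and 34312, with the higher ratios against pool B of D0.

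MT1F and MT1M rose later and to lower levels. MT1F was at 3.07 and 3.33 CPM on D0 and 1.51 and 3.22 on D3, then at 6.12 and 7.79 on D5, 59.4 and 29.4 on D7, 88.7 and 111 on D9, 148 and 91.0 on D11, 132 and 207 on D13, and 166 and 90.1 on D15. MT1M was at 2.68 and 2.98 CPM on D0, 1.49 and 2.96 on D3, 2.46 and 3.51 on D5, 9.05 and 4.91 on D7, 15.96 and 17.5 on D9, 40.6 and 33.4 on D11, 33.5 and 47.9 on D13, and 23.9 and 17.3 on D15. Neither differed between D0 and D3 beyond the spread of the pools. MT1M was the last to leave its range of D0, on D7, with its highest mean on D13 at 14.4-fold that of D0.

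**Figure D1:**
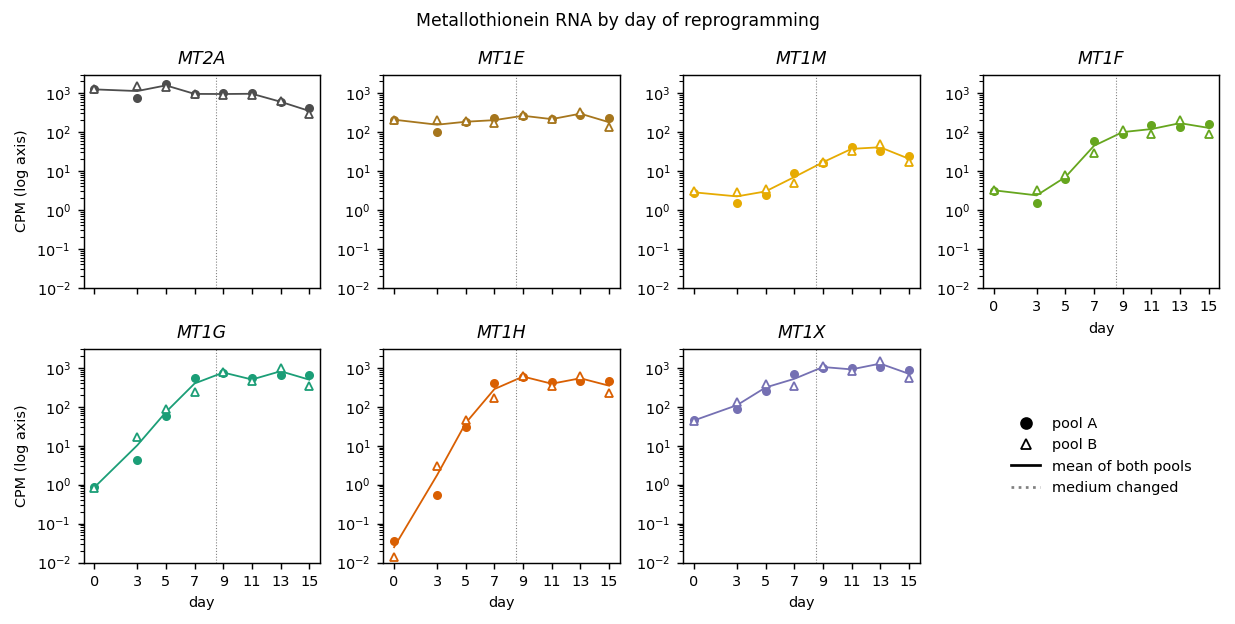
Level of each gene in CPM on a log axis against the day, with filled circles for pool A, open triangles for pool B, a line through the mean of both pools and a dotted line where the medium was changed. MT2A lies between 753 and 1760 CPM up to D11 and is at 410 and 287 on D15, MT1E stays between 103 and 319, and MT1G and MT1H climb from below 1 CPM on D0 to 740 and 778 and to 576 and 619 on D9.

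MT1X, MT1G and MT1H moved up in the order of the members, while MT2A, MT1E, MT1F and MT1M kept their order among themselves on D0, D9 and D15. On D0 it was MT2A, MT1E, MT1X, MT1F, MT1M, MT1G and MT1H, with no overlap of the pools between any neighbours. On D9 it was MT1X, MT2A, MT1G, MT1H, MT1E, MT1F and MT1M, again with no overlap. On D15 the order by mean was MT1X, MT1G, MT2A, MT1H, MT1E, MT1F and MT1M, but the pools of MT1X and MT1G, of MT1G and MT2A, of MT2A and MT1H, and of MT1E and MT1F overlapped.

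As a share of the UMIs of the 7 genes, MT2A took 82.7% and 82.9% on D0, 33.0% and 49.6% on D7, and 14.7% and 17.3% on D15. MT1X took 3.07% and 2.83% on D0, 27.2% and 29.0% on D9, and 30.8% and 33.1% on D15. MT1G took 23.0% and 21.2% and MT1H 16.7% and 13.9% on D15. On D15 all members were lower in pool B than in pool A, while on D7 the levels of MT2A were nearly equal in both pools and its shares were not. The sum of the 7 genes was 1502 and 1511 CPM on D0, 3650 and 3818 on D9, 3224 and 4275 on D13, and 2793 and 1655 on D15, so that both pools of D9, D13 and D15 were above both of D0, with the pools of D15 far apart.

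**Figure D2:**
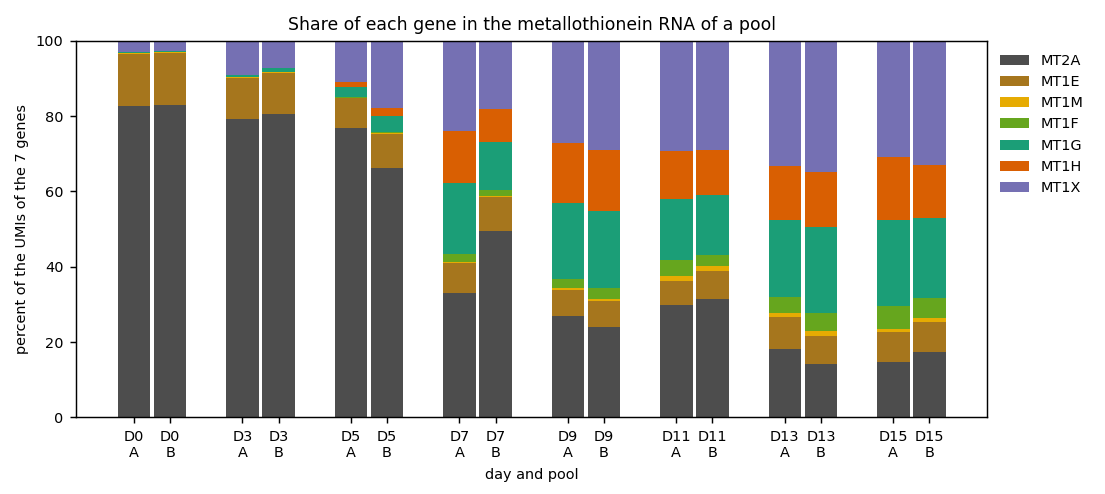
Share of each gene in the UMIs of the 7 genes, in percent, with 1 stacked bar for each of the 16 pools. The share of MT2A falls from 82.7% and 82.9% on D0 to 14.7% and 17.3% on D15, and that of MT1X is 3.07% and 2.83% on D0 and 30.8% and 33.1% on D15.

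Over the 16 pools, the correlation of log2(CPM + 1) was 0.99 between MT1G and MT1H, 0.99 between MT1G and MT1X, 0.98 between MT1H and MT1X, 0.94 between MT1F and MT1H and 0.95 between MT1M and MT1F, and it was 0.085 between MT2A and MT1E. These pools share the course of days, so any pair of genes that rises with time has a high value. Of 9398 other genes, those most like MT1H were MDK (r = 0.98), TDGF1 (0.98) and GPC4 (0.98), those most like MT1F were TMEM88, SCGB3A2 and IGDCC3, and those most like MT1M were NTS, LINC01356 and GPC3. TDGF1 is a marker of pluripotent cells and was among those used to sort cells by class below. The courses most like MT2A were those of NFE2L2 (r = 0.93), LAMA4 (0.92) and UBASH3B (0.90). NFE2L2 is the gene of NRF2, the transcription factor of the oxidative stress response, and went from 80.7 to 35.4 CPM between its highest and lowest pool. For MT1E they were TMEM87A (r = 0.76), CREB5 and LINC00467, for MT1G RP11-132A1.3 (0.98), GPC4 and ZNF620, and for MT1X RP11-132A1.3 (0.98), TUBD1 and ZNF620.

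Of the other metallothioneins, MT1A was the only one that passed the filter on low values, at 2.12 to 4.63 CPM with its highest level in pool B of D0. MT1B was at 0.0926 CPM at most, in pool B of D15, and MT4 had 8 UMIs in all. MT3, a member known from brain, reached 1.00 CPM in pool B of D15 and MT1HL1 1.15 in pool A of D15. MT1A and MT1B, which lie between MT1M and MT1F, thus stayed below the level of both in the late pools. Of all 91-base stretches in the last 500 bases of a transcript, 23.0% in MT1X and 0.739% in MT1G also occurred in another gene. Most of those of MT1X belong to ENSG00000259827, which overlaps it and was not among the genes counted. MT1H shared 3.30% with MT1HL1, and MT2A, MT1E, MT1M and MT1F shared none.

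In the late pools both somatic-like and pluripotent-like cells are present, so the members were compared between cells of the same pool. Mesendoderm-like markers were present too, at a mean summed CPM of 163 on D11, 130 on D13 and 99.97 on D15. Whether cells with these markers fall in either class below was not tested. A cell of D9 to D15 was called pluripotent-like or somatic-like if the mean log2(CPM + 1) of the 5 pluripotent-like markers (L1TD1, EPCAM, DPPA4, TDGF1, LIN28B) exceeded that of the 5 somatic-like markers (COL1A1, COL1A2, COL3A1, LUM, THY1) by at least 2 or fell short of it by as much. These are ranges of a score and not types, and between 23 and 1614 cells of a pool lay between the limits. Only 77 cells of pool A of D11 were pluripotent-like and only 49 of pool A of D15 somatic-like. Pluripotent-like cells were deeper in all 8 pools, for example with a median of 71082.5 against 49886 UMIs in pool A of D9. This contrast is close to the one on which the members were chosen, so its values are a description.

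MT2A was lower in pluripotent-like cells in all 8 pools, at 219 to 823 CPM with a median of 543, against 631 to 2010 with a median of 1065 in somatic-like cells. The ranges of the classes overlap across pools, while within each pool the somatic-like cells were higher. The log2 difference was −1.11 (standard error 0.23, edgeR with the pool as a block). The largest difference was in pool B of D11, with 404 against 2010 CPM, a level in somatic-like cells above that of the fibroblasts of D0.

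The other 6 members were higher in pluripotent-like cells in all 8 pools. MT1H was at 254 to 1224 CPM (median 652) in pluripotent-like and 20.8 to 191 (median 59.8) in somatic-like cells, and the log2 difference was 3.53 (standard error 0.36). MT1G was at 384 to 1446 against 37.9 to 294 CPM (3.37), MT1F at 98.9 to 239 against 7.98 to 63.5 (3.26), MT1M at 18.5 to 56.7 against 1.81 to 17.8 (2.88) and MT1X at 599 to 1739 against 129 to 569 (2.36). In MT1G, MT1H, MT1F, MT1M and MT1X the ranges of both classes did not overlap. MT1E was at 138 to 376 against 59.9 to 171 CPM (1.41), with ranges that overlapped. All 6 were called, beside 34.7% of all 12794 genes tested called higher, and 1 member was called lower, beside 34.7% called lower, and nothing is read from these counts. A gene was called at an adjusted p below 0.01 and a log2 difference beyond 0.25.

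**Figure D3:**
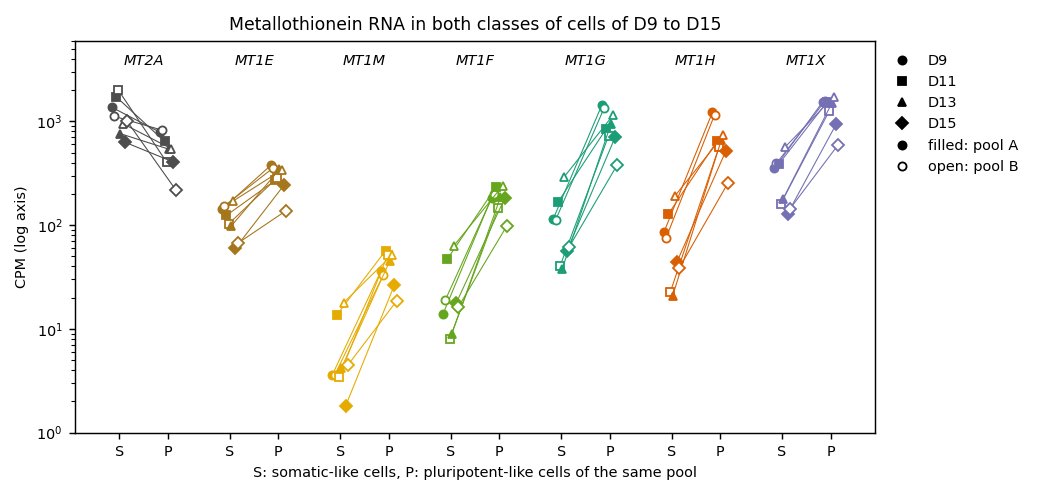
CPM on a log axis in somatic-like (S) and pluripotent-like (P) cells, joined for each of the 8 pools of D9 to D15, with 1 column per gene. All 8 lines of MT2A fall and all 8 lines of each of the other 6 genes rise.

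The make-up of the family differed between the classes. MT2A took 11.4% to 15.1% of the metallothionein UMIs of pluripotent-like cells and 42.2% to 85.6% of those of somatic-like cells. In pluripotent-like cells MT1G and MT1H together took 35.2% to 47.6%. The level of the whole family was higher in pluripotent-like cells in all 8 pools, for example 5605 against 2084 CPM in pool A of D9, and in pluripotent-like cells it was lower on D15, at 3018 and 1711 CPM, than on D9, at 5605 and 5501.

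The MT1G and MT1H RNA of somatic-like cells was compared with that of pluripotency genes. The paper describes weak but measurable embryonic genes, such as POU5F1 and LEFTY2, in somatic clusters of the late days. Somatic-like cells may therefore make some of this RNA themselves, which was not tested. For 5 pluripotency genes that were not used for the class, namely DPPA2, DNMT3B, PRDM14, VRTN and LINC-ROR, the level in somatic-like cells was 0.826% to 35.2% of that in pluripotent-like cells of the same pool, with the highest medians in pool A of D11 (14.2%) and pool B of D13 (21.7%). For MT1H it was 3.15% to 26.0%, for MT1G 4.03% to 25.6% and for MT1F 4.797% to 26.6%, each with the highest values in the same 2 pools. MT1M was at 6.66% to 34.6%, MT1X at 12.04% to 32.7% and MT1E at 24.7% to 50.4%. MT1E, MT1X, MT1F and MT1G were above the median of the 5 genes in 8 of 8 pools and MT1M and MT1H in 7. MT1E was above the highest of the 5 in 8 pools, MT1X in 6, MT1M in 4, MT1F in 3, MT1G in 2 and MT1H in 1. Whether free RNA has a part in the level of these members in somatic-like cells was not tested. The other way around, DCN, POSTN and LOX, fibroblast genes, were at 0.644% to 9.71% in pluripotent-like cells of their level in somatic-like cells, and MT2A was at 20.1% to 73.3%, above all 3 in range. These 8 genes were chosen after the members' values were seen.

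**Figure D4:**
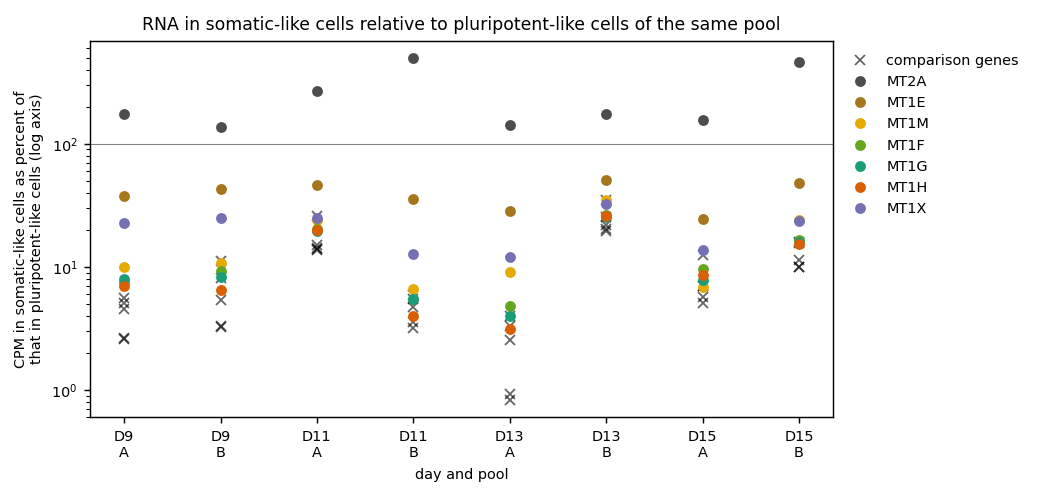
Level in somatic-like cells as a percent of that in pluripotent-like cells of the same pool, on a log axis, for the 7 metallothioneins (coloured circles) and 5 pluripotency genes (black crosses). MT1G, MT1H and MT1F are highest in pool B of D13, and MT1E and MT2A lie above all crosses in each of the 8 pools.

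The share of cells with a UMI was compared as well. With each cell thinned to 10000 UMIs, MT1H was found in 0.0496% and 0.0218% of the cells of D0, 4.98% and 10.9% on D5, 82.7% and 21.0% on D7, and 57.6% and 70.5% on D9. In pluripotent-like cells of D9 the share was 92.3% and 94.6%, and in somatic-like cells 25% and 40.7%. In somatic-like cells it was 69.0% in pool A and 13.5% in pool B of D11, and 15.7% in pool A and 85.1% in pool B of D13, so no difference between classes is read from shares on these days. On D7 both pools differed as well, with 89.5% and 28.7% of cells for MT1G. In pool A of D7, pool A of D11 and pool B of D13, 0 cells lacked a metallothionein UMI, against 0.148% to 3.83% in the other pools. Whether free RNA has a part in this was not tested.

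After thinning, the tenth of cells with the most carried 27.5% and 28.0% of the 7 genes' UMIs on D0, 47.9% and 48.7% on D5 and 29.5% and 29.2% on D15. It was highest on D5. Within pools, Spearman's correlation over cells between MT1G and MT1H was 0.82 to 0.86 in both pools of D9, in pool B of D11 and in pool A of D13, and 0.60 to 0.73 in the other pools from D9. That between MT2A and MT1H lay between 0.06 and 0.47 from D9. These cells share a library and a mixture of classes.

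Cells of D3, D5 and D7 were split in each pool at the median of LIN28A. The study transfected LIN28, and which part of the LIN28A UMIs is transfected RNA and which the cells' own was not tested. In pool A of D3 the median cell had no LIN28A UMI, so 574 cells with such a UMI were compared with 1307 without. These had a median of 56808.5 against 42646 UMIs in all. MT2A was lower in cells with more LIN28A in all 6 pools. It was at 632 against 826 CPM and 1312 against 1745 on D3, 882 against 3051 and 926 against 2060 on D5, and 907 against 1031 and 720 against 1274 on D7. The log2 difference was −0.81 (standard error 0.19, adjusted p = 0.0057 from edgeR), and 1 of 7 members was called lower, beside 19.6% of all genes. It was no longer called without pool B of D5 (−0.75) or without pool B of D7 (−0.80).

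MT1H was higher in cells with more LIN28A in 5 of 6 pools, with pool B of D3 the exception at 2.57 against 3.47 CPM. In pool A of D3 it was at 1.07 against 0.240 CPM, from only 38 against 14 UMIs. It was at 42.0 against 14.8 and 62.2 against 22.5 CPM on D5, and 553 against 207 and 266 against 24.1 on D7, with a log2 difference of 1.59 (standard error 0.40, adjusted p = 0.0086). It was the only 1 of 7 members called higher, beside 16.6% of all genes, and it was no longer called without pool A of D3, either pool of D5 or either pool of D7 (1.13 to 1.63), with a stricter cell filter of 2000 genes or more and a mitochondrial share up to 5% (1.48), or between the outer 4th parts of LIN28A (1.88). MT1G followed it closely on D5 and D7, at 79.7 against 28.1 and 122 against 39.5 CPM on D5 and 748 against 298 and 381 against 41.2 on D7. MT1G missed the call (1.36, adjusted p = 0.011), as did MT1F (1.18, adjusted p = 0.029), MT1X (0.77, adjusted p = 0.021) and MT1M (0.54, adjusted p = 0.094). These fits include D3, where MT1G was at 4.848 against 3.802 CPM in pool A and 16.03 against 16.71 in pool B. MT1X was lower in cells with more LIN28A in both pools of D3, at 84.1 against 86.6 and 132 against 136 CPM. MT1F (log2 differences −0.533 and −0.251) and MT1M (−0.312 and −0.303) were lower in both pools of D3 as well. MT1G, MT1F, MT1X and MT1M were higher in every pool of D5 and D7. MT1E had a log2 difference of −0.060 with a standard error of 0.14. Cells with more LIN28A were deeper in every pool, for example 54620 against 34836 UMIs in pool A of D5. With both sums of a pool thinned to the same total, 2 members were called higher, beside 2090 of 12794 genes.

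Cells were also split by division, in each pool into 3 equal parts, of which the highest and the lowest were compared, by the mean log2(CPM + 1) of 10 genes of S phase and mitosis. MT1M was higher in the dividing cells in 16 of 16 pools, MT1G, MT1H and MT1X in 15, MT1E in 13 and MT1F in 12. Median levels over the pools were 344 against 40.2 CPM for MT1H, 474 against 67.7 for MT1G and 658 against 242 for MT1X. Each median was taken for 1 part by itself over all days, so these are not differences within pools. Log2 differences of 2.17 for MT1H, 1.74 for MT1G, 1.20 for MT1M, 1.17 for MT1F and 0.90 for MT1X were called, 5 of 7 members beside 27.5% of all genes, and 0.37 for MT1E was not (adjusted p = 0.034). MT1F was no longer called without any 1 of pool A of D9, D11 or D13 and pool B of D9 (1.03 to 1.11). In the pools of D3 to D7 alone, a subset added after the data were seen, MT1H was called, and 1.67 for MT1G, 0.74 for MT1M, 0.80 for MT1F and 0.61 for MT1X were not. MT2A was lower with −0.48 (standard error 0.15, adjusted p = 0.0065), 1 of 7 beside 30.1%, and was no longer called without any 1 of 8 pools (pool A of D3, D5, D9 or D11, pool B of D5, D7, D11 or D15), with −0.43 to −0.48, or with a split at the median score (−0.28). Dividing cells were deeper in every pool, with 77676 against 46395 UMIs in pool A of D9. Taken among the pluripotent-like cells of D9 to D15 alone, the log2 differences were between 0.093 for MT1X and 0.27 for MT1H. That of MT2A was 0.23, so it was higher in the dividing cells of this class. This comparison was added after the data were seen. Only MT1H was called, beside 337 of 12794 genes called higher. MT2A (adjusted p = 7.8e-05 from edgeR), MT1G (0.00045), MT1F (0.00046) and MT1E (0.00098) missed the call only by the limit on the log2 difference. MT1X (0.030) and MT1M (0.066) missed the limit on the adjusted p as well.

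In the fibroblasts of D0, MT2A went the other way from the fit over all pools. It was higher in the dividing cells of both pools, at 1729 against 879 CPM in pool A and 1695 against 942 in pool B, whereas in all 14 pools of D3 to D15 it was lower, from 690 against 891 in pool A of D3 to 225 against 449 in pool B of D15, with 423 against 425 in pool A of D15. Fitted on D0 alone, the log2 difference was 0.84 (standard error 0.027). The difference between D0 and the later days was 1.42 (standard error 0.28), with an adjusted p of 0.031 from edgeR, which missed the call that 0.0156% of all genes passed, namely 2 genes by edgeR, with 3071 at an unadjusted p below 0.05. MT1G was at 1.30 against 0.467 and 1.16 against 0.448 CPM on D0, from 79 against 23 and 61 against 20 UMIs. MT1F was lower in the dividing cells of both pools of D0 and of D3. On D0 it was at 2.76 against 3.27 and 2.67 against 3.52 CPM, and fitted on D0 alone its log2 difference was −0.39 (standard error 0.12).

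**Figure D5:**
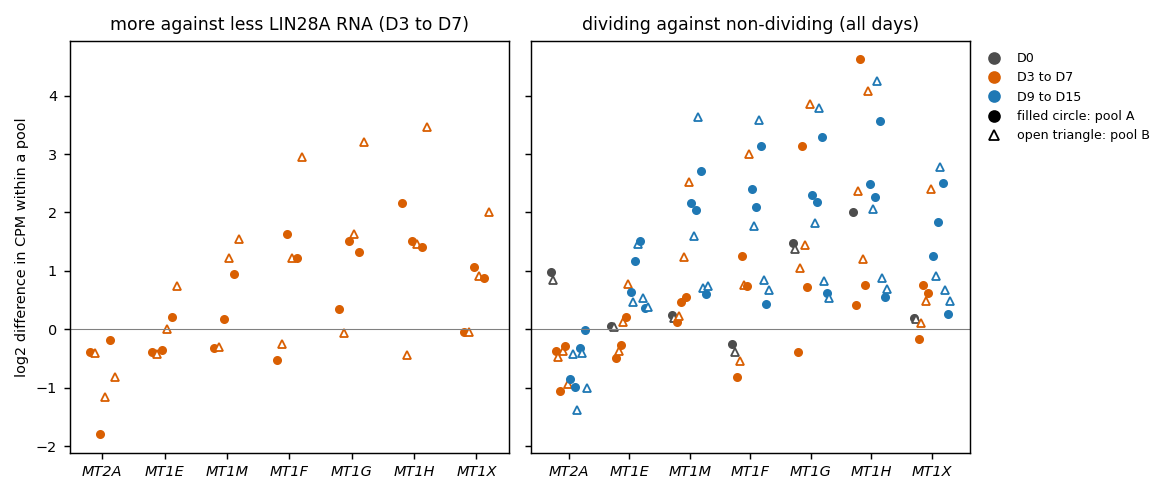
Log2 difference in CPM within each pool, for cells with more against less LIN28A on D3 to D7 (left) and for dividing against non-dividing cells on all days (right), with 1 point per pool. MT2A is below 0 in all 6 pools on the left and in the 14 pools of D3 to D15 on the right, and at 0.98 and 0.85 in the pools of D0. MT1H has 15 points on the right, since 1 sum of D0 held no UMI.

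The genes around metallothioneins were followed between days by lists of zinc, copper, NRF2 target and glucocorticoid genes, tested in 1 fit over all pools. MTF1, the zinc sensor that drives metallothioneins, was at 8.25 and 8.45 CPM on D0, 5.76 and 7.58 on D3, 5.79 and 6.43 on D9, and 8.17 and 7.47 on D15, and was called in none of the 4 comparisons (adjusted p from 0.14 to 0.54). SLC30A1, the zinc exporter of the cell surface and like the metallothioneins a known target of MTF1, went from 6.07 and 6.96 CPM on D0 to 10.2 and 5.06 on D3 and 12.1 and 11.7 on D9, without a call. It then fell to 1.60 and 2.08 CPM on D15 (log2 fold change −2.61 against D9, standard error 0.34, adjusted p = 0.00014 from edgeR). It was lower on D15 than on D0 as well (log2 fold change −1.87).

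Of 25 zinc genes, MTF1 and the exporters and importers of the SLC30 and SLC39 families, 18 passed the filter. On D3, 1 was called, lower than on D0, beside 13.1% of all genes called higher and 12.6% lower. That one was SLC39A6, an importer, at 22.4 and 23.3 against 45.9 and 45.8 CPM. From D3 to D9, 1 was called, higher, beside 11.8% and 11%, namely SLC39A8, an importer of zinc and manganese, at 17.8 and 13.8 against 4.40 and 1.39 CPM. From D9 to D15, 1 rose and 2 fell, beside 10.8% and 10.2%: SLC39A4, at 49.0 and 50.5 against 29.0 and 27.2 CPM, and SLC30A4 and SLC30A1. Leaving out 1 pool of the days compared ended the call of SLC39A6 for 3 of 4 pools, of SLC39A8 for 3, of SLC39A4 for 4, of SLC30A4 for 1 and of SLC30A1 for 0. Without pool B of D3 the log2 fold change of SLC39A8 was 1.81, and with the stricter cell filter that of SLC30A4 was −1.42. Between D0 and D15, 3 rose and 6 fell, beside 26.8% and 26.7%. SLC39A10, an importer at the cell surface, was at 184 and 157 CPM on D15 against 27.4 and 25.2 on D0 (log2 fold change 2.63), and SLC30A4 at 0.241 and 0.309 against 4.26 and 4.73. The median log2 fold change of the 18 genes was −0.22, that of all genes 0.0099.

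Of 7 copper genes 6 were tested. SLC31A1, the copper importer, was higher on D3, at 20.0 and 23.8 CPM, than on D0, at 12.7 and 13.2, and reached 30.7 and 32.6 on D15 (log2 fold change 1.23). ATP7A, a copper exporter, was lower on D9 than on D3, at 0.934 and 1.14 against 1.80 and 4.73 CPM, and lower on D15 than on D0. The call of SLC31A1 on D3 was lost without 3 of the 4 pools, that of ATP7A on D9 without 3, with a log2 fold change of −0.84 without pool B of D3, and that of ATP7A on D15 without any 1 of the 4 (−1.12 with the stricter cell filter). These were the only calls among the copper genes in the 4 comparisons. From D0 to D3, 1 rose, beside 13.1% of all genes, and from D3 to D9, 1 fell, beside 11%. From D9 to D15, 0 were called, beside 10.8% higher and 10.2% lower. Between D0 and D15, 1 rose and 1 fell, beside 26.8% and 26.7%.

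NRF2 targets went both ways. Of 9 tested, 2 rose from D0 to D3, beside 13.1% of all genes, 1 rose and 1 fell from D3 to D9, beside 11.8% and 11%, 1 rose and 4 fell from D9 to D15, beside 10.8% and 10.2%, and 1 rose and 3 fell from D0 to D15, beside 26.8% and 26.7%. SLC7A11, the cystine importer, went from 4.98 and 5.56 CPM on D0 to 24.7 and 36.1 on D3 (log2 fold change 2.51) and back to 15.5 and 16.7 on D9. HMOX1, heme oxygenase, rose from 9.63 and 8.28 CPM on D3 to 25.3 and 29.6 on D9. NQO1, a quinone reductase, was at 361 and 332 CPM on D0, 249 and 254 on D9 and 44.9 and 65.96 on D15 (−2.11 from D9, adjusted p = 0.00024), while GCLC, for the synthesis of glutathione, rose from 4.98 and 5.30 to 9.58 and 9.03 CPM over the same days. The fall of SLC7A11 from D3 to D9 was no longer called without 3 of the 4 pools (−0.66 without pool B of D3), and the rise of GCLC without any 1 of the 4. TXN, thioredoxin, was at 718 and 701 CPM on D15 against 1570 and 1505 on D0.

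Of 7 glucocorticoid genes tested, 6 fell from D0 to D3, beside 12.6% of all genes, 2 rose and 1 fell from D3 to D9, beside 11.8% and 11%, 1 rose and 3 fell from D9 to D15, beside 10.8% and 10.2%, and 1 rose and 5 fell from D0 to D15, beside 26.8% and 26.7%. DUSP1, a phosphatase that serum and stress also induce, was at 209 and 215 CPM on D0 and 25.7 and 11.1 on D3 (log2 fold change −3.58, adjusted p = 0.00016). NR3C1, the receptor itself, was at 72.9 and 76.3 CPM on D0, 32.5 and 44.6 on D3, 14.1 and 16.3 on D9 and 7.41 and 8.93 on D15. Its call between D9 and D15 was lost without any 1 of the 4 pools (−0.69 to −0.98), and with the stricter cell filter the log2 fold change was −0.014. FKBP5 rose to 17.3 and 17.2 CPM on D15 from 3.27 and 3.87 on D9. SGK1, a kinase, and TSC22D3 were the 2 that rose from D3 to D9, SGK1 from 15.03 and 9.05 to 43.0 and 48.7 CPM and TSC22D3 from 7.63 and 4.40 to 15.4 and 15.6, and both fell from D9 to D15. Leaving out 1 of the 4 pools compared ended the call of TSC22D3 for 3 pools from D3 to D9 and for 4 from D9 to D15, and that of SGK1 for 0. The median log2 fold change of the 7 genes was −1.64 between D0 and D15. The comparisons share pools, and all rest on the spread over all 16 pools: with only the 4 pools of both days in the fit, edgeR called 0 of the listed genes between D0 and D3 and between D3 and D9, beside 0 of all 12766 genes (5431 at an unadjusted p below 0.05) and 8.56% of all 12794 genes.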

How the data were processed

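Single-cell 3′ RNA-seq was performed on BJ fibroblasts and their progeny. The authors used Cell Ranger 2.2 with hg38 and the GRCh38 annotation, and deposited UMI counts per gene and cell barcode for each library, which were used as deposited. Barcodes under 1000 genes or above 10% mitochondrial UMIs were left out, aliquots of a pool were added together, and UMIs were summed per pool or per pool and class. Levels are CPM of these sums and log2(CPM + 1) was used for scores. Doublets were not removed. Genes found in at least 5% of cells (12794) were tested with edgeR 4.0.16 (R 4.3.3, TMM, quasi-likelihood, Benjamini-Hochberg over all genes), with the pool as a block within pools and the day as the only term between days. Calls needed an adjusted p below 0.01 and a log2 difference beyond 0.25. DESeq2 1.42.0, other filters, splits and left-out pools were alternatives, and the fits by class and between D0 and D15 were tested on simulated data. The text names all 7 members, the 3 genes most like each, MTF1, SLC30A1 and some of, per list and comparison, up to 3 genes called in each direction. Members and lists were chosen with earlier results of these data known. Intervals cover counting error only. The letters A and B are not said to pair pools across days and were not used as pairs in the main fit. Correlations of the deviations between days ran from −0.45 to 0.82 over 28 pairs of days, with a median of −5.3e-06.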

Additional observations from a re-analysis of the deposited data

Results flagged for a closer look

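MT2A was flagged because its difference between dividing and non-dividing cells had opposite signs on D0 and on later days. On D0 the log2 difference was 0.98 in pool A and 0.847 in pool B, and in the 14 pools of D3 to D15 it lay between −1.39 and −0.0090. Among pluripotent-like cells of D9 to D15 it was 0.23 (adjusted p = 7.8e-05 from edgeR), which missed the call only by the limit on the log2 difference. The part of the mix of classes in the late pools was not tested. The difference between D0 and the later days was 1.42 (standard error 0.28, adjusted p = 0.031 from edgeR), which missed the limit of 0.01. The dividing cells of D0 had a median of 25481 and 29658 UMIs against 22262 and 26749, and the part of depth in this was not tested. Of 14 groups tested for a pool that stands apart, none was flagged.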

How the results depend on the processing

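The members called between pluripotent-like and somatic-like cells, 6 higher and 1 lower, were the same in number with each pool left out. Of all genes, 4166 to 4448 were then called higher and 4165 to 4463 lower. For LIN28A, 1 member was called higher, against 2 with DESeq2, 4 with no filter on genes, 2 with sums thinned to the same total, 0 with a stricter cell filter (2000 genes or more, mitochondrial share up to 5%), 0 with the extremes of LIN28A (4 parts), and 0 to 4 with a pool left out. All genes called higher numbered 2128 of 12794 in the main fit. They were 2432 with DESeq2, 2782 of 26652 with no filter, 2090 with thinned sums, 2249 with the stricter filter and 2349 with the extremes. With a pool left out they were 1560 to 2113. The 1 called lower became 0 to 1 with a pool left out, beside 2510 of all genes in the main fit and 2016 to 2447 with a pool left out. For division, 5 were called higher, beside 3517 of all genes, and 4 to 5 with a pool left out, beside 3270 to 3613. It was 1 in pluripotent-like cells alone, 1 in the pools of D3 to D7 and 2 in those of D0, beside 337, 3358 and 2628. The 2 of D0 were MT2A and MT1G, of which only MT1G is among the 5. MT1F, also among the 5, was called lower on D0. The 1 called lower over all pools, MT2A, became 0 with no filter, with a split at the median score, in pluripotent-like cells alone and without pool A of D11 and pool B of D13. Of all genes, 3845 were called lower in the main fit, and 4644 of 28748, 3048, 390 and 3242 under these settings. With a pool left out it was 0 to 1, beside 3639 to 3883. MT2A reversed to 0.23 in pluripotent-like cells alone and 0.84 on D0 alone, and MT1F to −0.39 on D0 alone. These subsets, and the exclusion of both pools, were added after seeing the data.

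Among the pathway lists, the 3 called higher from D0 to D3 became 6 at an adjusted p below 0.05, 5 with DESeq2, 5 with no filter and 0 with only the 4 pools. All genes called higher numbered 1671 in the main fit, and 2475, 2148, 2553 of 29281 and 0 under these settings. The 7 called lower became 0 with the 4 pools, beside 1609 of all genes in the main fit and 0 with the 4 pools. With a pool left out, 1 day rests on 1 pool, so no counts are given for it. From D3 to D9, the 4 higher became 8, 7 and 0 at 0.05, with DESeq2 and with 4 pools, beside 1515 of all genes and 2099, 1917 and 823. The 3 lower became 9, 6 and 0 at 0.05, with no filter and with 4 pools, beside 1413 of all genes and 2261, 2460 of 29281 and 272. From D9 to D15, the 3 higher became 1 with no filter, where 2535 of 29281 genes were higher, against 1381. The 9 lower became 18 with 4 pools, where 3245 of all genes were lower, against 1311. From D0 to D15, the 6 higher became 11 with 4 pools, where 4721 of all genes were higher, against 3423. With the pool letter as a replicate block, 3 and 7 were called from D0 to D3, 5 and 4 from D3 to D9, 3 and 9 from D9 to D15 and 7 and 16 from D0 to D15. Of all genes it was 1773 and 1830, 1587 and 1517, 1597 and 1491, and 3548 and 3550. The difference of the family's shares between D0 and D15 (sum of absolute differences over 2) was 72.5%, 69.1% with the stricter cell filter, and 71.2% to 73.8% with a pool left out. MT1E, with a log2 ratio of −0.22 between D15 and D0, reversed to 0.11 without pool B of D15 and was −0.65 without pool A and −0.85 with the stricter cell filter, which moved that of MT1M from 2.86 to 1.95. The causes were not tested.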
